A study of Rattus norvegicus with 9 samples.

Results

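Dexamethasone, a synthetic glucocorticoid, was compared with vehicle in the gastrocnemius of male Wistar rats, a mixed muscle of the calf. The comparison was defined by the sample titles and used 6 of the 9 arrays of the series, 3 per group with 1 animal per array. Dexamethasone was delivered at 0.7 mg/kg/day from an implanted osmotic pump for 7 days, and the control rats received propylene glycol, the vehicle. The labels give a weight of 250 g for the animals. The other 3 arrays came from rats given dexamethasone with testosterone, and they entered only the scaling and the estimate of the spread. Whole tissue was homogenized, so the values are sums over muscle fibres and every other cell in the piece. Strain, sex and weight are all that the labels give of the animals, and food intake or muscle mass were not analysed here.

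Glucocorticoids cross the cell membrane and bind the glucocorticoid receptor, a transcription factor that then enters the nucleus and binds DNA at palindromic response elements. In muscle this hormone is known for wasting: protein synthesis is restrained, protein breakdown is raised, and amino acids are released for glucose synthesis in the liver. The receptor is also known to act on connective tissue and immune cells, where it lowers collagen and chemokine genes.

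The deposited signals were linear, with a trimmed mean of 500.3 on 5 arrays and of 113 to 207 on the other 4, so the arrays were first brought to a common scale by quantile normalization of log2(signal + 16). All levels below are on that log2 scale, where the added 16 sets a floor. The size of a change is less certain where 1 group lies near that floor. Array medians before scaling ran from 32 to 132.1 in these 6 arrays, and after scaling the arrays correlated at 0.953 to 0.965 within the vehicle group, 0.925 to 0.946 within the dexamethasone group and 0.923 to 0.943 between the groups. Dexamethasone replicate 3 stood apart in its Gapdh signal, which at the 3' end was 4.94 times that at the 5' end. That ratio was 1.06 to 1.17 in the other 5 arrays. The scaled Lys spike-in signal of replicate 3 was 436, against 7019 to 43339 in those 5. Whether RNA quality differed was not tested. Scaling and the spike-in RNAs split the 6 arrays into 3 technical batches, made after their values were seen: vehicle replicates 1 and 3 with dexamethasone replicate 1 (batch A), replicates 2 of both groups (batch B), and dexamethasone replicate 3 alone (batch C). The tissue label was borne out by the signals of muscle: 11 of 12 skeletal muscle markers were tested, among them skeletal actin Acta1, creatine kinase Ckm and the fast myosin Myh4, and all 11 lay above the 98th percentile of gene levels. None of these 11 differed from vehicle at the threshold, a limma adjusted p under 0.05, and 1 (Pvalb) had an unadjusted p under 0.05.

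Across the 10428 genes tested, each read from its brightest probe set, 77 rose and 59 fell with dexamethasone (limma, n = 3 per group). Those 136 genes were 1.3% of the genes tested, with 0.738% higher and 0.566% lower, and at the level of probe sets 196 of 18625, or 1.05%, passed. Counts of calls in the gene lists below are to be read against these shares of genes. The lists were drawn up with earlier results of these data known. The smallest change among the 136 genes was 1.97-fold. In each of the 136, the 3 dexamethasone arrays lay wholly above or wholly below the 3 vehicle arrays, and the change had the same sign within batch A and within batch B. Choosing genes by these arrays largely fixes that, and over all genes 15.2% lay wholly above vehicle and 11.5% wholly below. At an unadjusted p under 0.05 there were 1840 genes, 17.6% of those tested, the share against which such counts for a gene list are to be read. The median change over all genes was 0.04 on the log2 scale. The median SD between arrays was 0.21 in vehicle and 0.29 in dexamethasone.

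**Figure D1:**
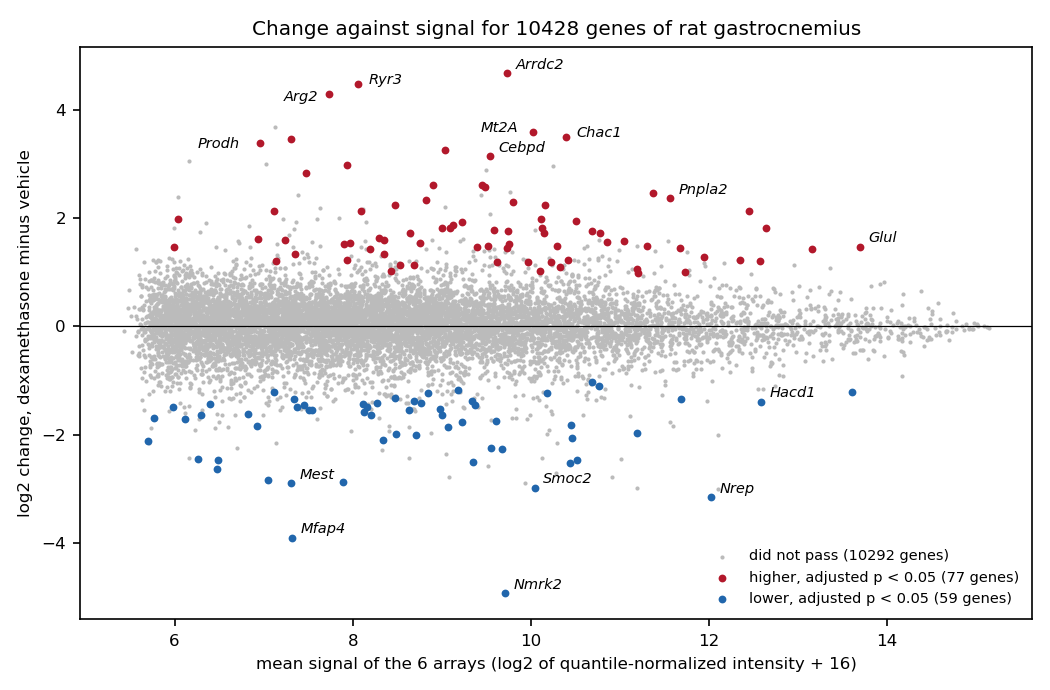
Each point is 1 of 10428 genes, with its mean log2 signal over the 6 arrays on the horizontal axis and its fitted log2 change, dexamethasone minus vehicle, on the vertical axis. The 77 genes that rose are red, the 59 that fell are blue and the rest grey; changes that passed occur from low to high signals, between Arrdc2 at 4.68 and Nmrk2 at -4.93.

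The number of genes past the threshold depended on single arrays. Without vehicle replicate 1, 2 or 3 the count of probe sets fell from 196 to 2, 1 and 1, and without dexamethasone replicate 1 or 2 to 3 and 10, while without dexamethasone replicate 3 it was 333. Of the 136 genes, 1, 0, 0, 2 and 7 passed without vehicle replicates 1, 2 and 3 and dexamethasone replicates 1 and 2, so nearly all calls within the gene lists below rest on each of those arrays. In each of these fits the 136 genes all had the same direction and an unadjusted p below 0.05, with adjusted p of at most 0.197. With the batch as a block 179 probe sets and 79 of the 136 genes passed.

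Transcription factors and feedback regulators that the receptor is known to induce were among the clearest rises. Signals of Cebpd, a C/EBP transcription factor, were 11.45, 10.48 and 11.41 in dexamethasone replicates 1, 2 and 3, against 7.93, 7.81 and 8.19 in vehicle. The lowest dexamethasone array thus stood above the highest vehicle array by more than the spread within either group, and the log2 change was 3.14 ± 0.33 (SE; adjusted p = 0.0166). Cebpb, its relative, had 11.22, 11.42 and 11.18 against 9.03, 9.1 and 8.97, with both groups tight (change 2.24 ± 0.38, adjusted p = 0.0365). Klf15 and Klf9, zinc-finger factors that glucocorticoids induce in many tissues, rose by 1.48 ± 0.24 and 1.21 ± 0.18 (adjusted p = 0.0324 and 0.0244). A second, dimmer probe set of each overlapped between the groups and did not pass (Klf15 0.84, adjusted p = 0.629; Klf9 0.19, adjusted p = 0.967). Of the 18 C/EBP, KLF and FoxO factors tested, these 4 rose, 22.2% against 0.738% of all genes, 0 fell and 14 did not pass. The median change was 0.39, or -0.04 without dexamethasone replicate 2. Foxo3, which drives atrophy genes, had signals of 10.21, 10.25 and 9.79 against 9.2, 8.58 and 9.15 and did not pass (change 1.11 ± 0.29, adjusted p = 0.109). Foxo1, its paralogue, had 6.27, 10.17 and 6.45 against 6.73, 6.8 and 7.32, high in a single dexamethasone array (adjusted p = 0.795).

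In the wider list of receptor targets all calls were rises. Of 32 members tested, 16 rose, 0 fell and 16 did not pass, against 0.738% of all genes that rose; 25 lay wholly above vehicle, 78.1% of the list against 15.2% of all genes. Changes of 4 members were below 0, the lowest at -0.59, and 1 of these lay wholly below vehicle. The list was drawn up with earlier results of these data known, so its direction is not independent evidence. The median change was 1.47, with 1.64, 1.42 and 1.2 in dexamethasone replicates 1, 2 and 3, and 1.56 within batch A and 1.53 within batch B. Without the 2 arrays of high Gapdh ratio 17 rose, and without dexamethasone replicate 1 a single member did. The clock gene Per1 had signals of 7.17, 7.06 and 6.85 against 5.05, 5.17 and 4.95, with no overlap (change 1.97 ± 0.22, adjusted p = 0.0166). Tsc22d3, the leucine zipper protein GILZ that mediates anti-inflammatory effects, rose less (from 11.09, 11.37 and 11.23 to 12.12, 12.28 and 12.33, change 1.01 ± 0.18, adjusted p = 0.0378). Errfi1, a feedback inhibitor of the EGF receptor, stood at 11.06, 11.25 and 9.99 against 7.95, 8.03 and 8.61 (change 2.57 ± 0.35, adjusted p = 0.0213). Gadd45g, a stress-induced growth arrest gene, stood at 10.66, 10.66 and 10.94 against 8.34, 7.34 and 8.75 (change 2.61 ± 0.33, adjusted p = 0.0206). Tns1, a focal adhesion protein, rose by 1.72 ± 0.30 (adjusted p = 0.0367), while a further probe set overlapped and did not pass (1.14, adjusted p = 0.201).

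Genes of hormone reception itself differed from each other, and the median change of their list was -0.07. The receptor gene Nr3c1 had signals of 10.53, 10.1 and 10.92 against 10.89, 10.8 and 10.98, overlapping between the groups (change -0.37 ± 0.23, adjusted p = 0.488). Hsd11b1, the enzyme that regenerates active glucocorticoid, changed by -0.65 ± 0.28 (adjusted p = 0.307), and H6pd, which supplies that enzyme with NADPH, rose by 1.52 ± 0.25 (adjusted p = 0.0324), from 7.2, 7.34 and 6.88 to 9.05, 8.33 and 8.61. The brighter probe set of Fkbp5, a co-chaperone that dampens the receptor, had 10.49, 11.56 and 9.71 against 9.03, 8.19 and 8.3 and did not pass (change 2.08 ± 0.57, adjusted p = 0.12), while its dimmer probe set did (change 3.05 ± 0.54, adjusted p = 0.0378). Of the 10 genes tested for steroid receptors and co-chaperones, 1 rose, 0 fell and 9 did not pass.

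**Figure D2:**
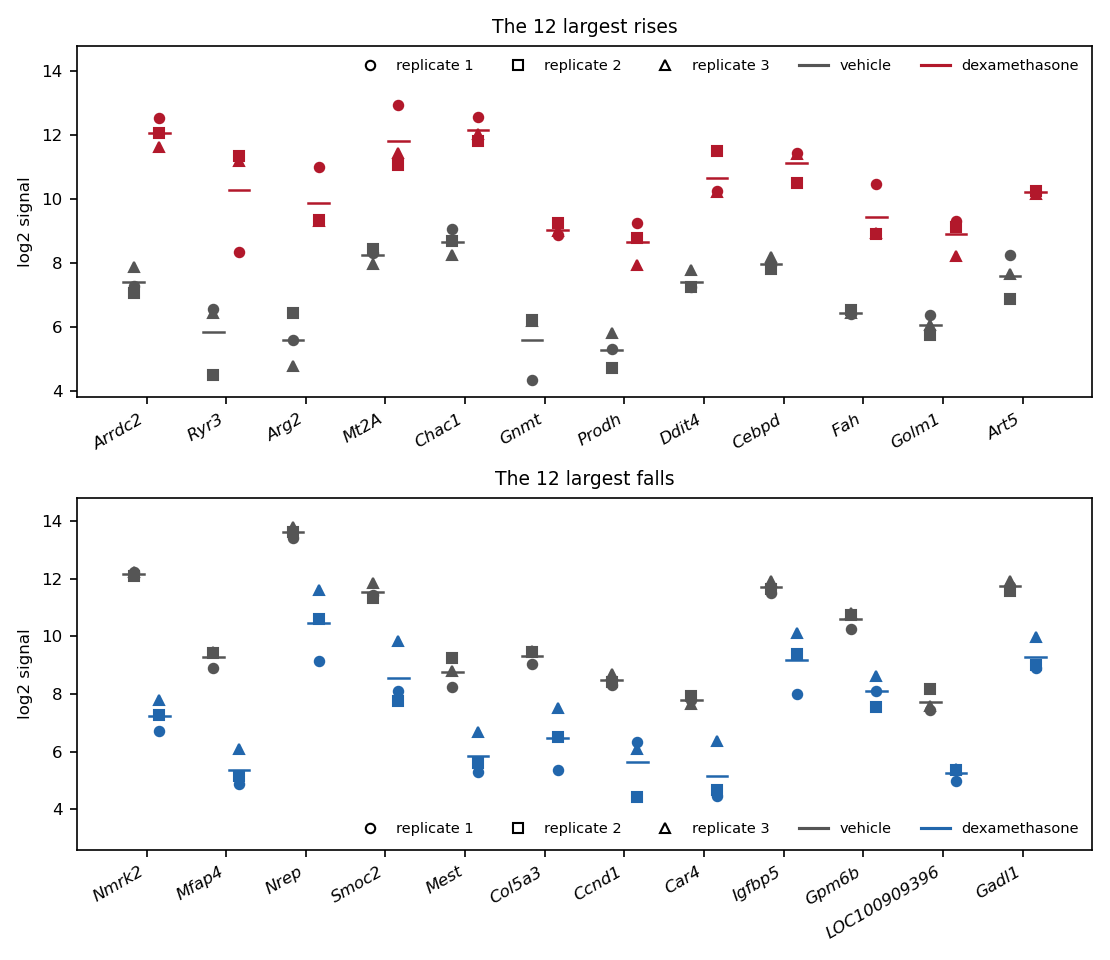
Log2 signals of the 12 largest rises (top) and the 12 largest falls (bottom) among genes past the threshold, with vehicle in grey and dexamethasone in colour; symbols mark replicates 1 to 3 and bars the group means. No gene overlaps between the groups, and Ryr3 and Car4 show a single dexamethasone array closer to vehicle, replicate 1 at 8.33 and replicate 3 at 6.37.

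Arrdc2 led the rises and was the single alpha-arrestin to pass. Alpha-arrestins are adaptors that bring ubiquitin ligases to membrane proteins. Its signals were 12.52, 12.07 and 11.63 under dexamethasone and 7.27, 7.06 and 7.86 under vehicle, a 25.6-fold difference in the fit (change 4.68 ± 0.55, adjusted p = 0.0166). Of the 4 other family members tested, Arrdc3 and Arrdc4 lay wholly above vehicle but did not pass (changes 0.88 ± 0.24 and 0.41 ± 0.24, adjusted p = 0.125 and 0.456). Arrdc1 and Txnip overlapped between the groups (changes -0.49 ± 0.55 and -0.16 ± 0.34), and that of Txnip was 0.25 without dexamethasone replicate 3.

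Repressors of growth signalling rose, and a receptor substrate fell. Ddit4, which inhibits the kinase complex mTORC1, stood at 10.26, 11.51 and 10.22 against 7.24, 7.23 and 7.76, highest in replicate 2 (change 3.25 ± 0.42, adjusted p = 0.0206). Eif4ebp1, which holds back cap-dependent translation when mTORC1 is low, was at 13.46, 12.19 and 12.17 against 10.05, 10.44 and 9.93, highest in replicate 1 (change 2.47 ± 0.38, adjusted p = 0.0306). Sesn1, a leucine-sensing inhibitor of mTORC1, rose by 1.18 ± 0.19 (adjusted p = 0.0324), while its dimmer probe set stood at -0.77 and did not pass. These were the 3 of 19 genes of this list that rose, 15.8% against 0.738% of all genes. In that list 0 fell, and the median was 0.24. That median was 0.1 without vehicle replicate 2 and 0.13 without dexamethasone replicate 1, and 0 members passed without any 1 of the vehicle arrays or dexamethasone replicates 1 and 2. Irs1, the docking protein of the insulin and IGF-1 receptors, fell from 6.85, 7.57 and 6.93 to 5.56, 5.53 and 5.96 (change -1.43 ± 0.26, adjusted p = 0.0396). Among binding proteins of IGF, Igfbp5 was at 8.0, 9.4 and 10.13 against 11.5, 11.65 and 11.94, nearest to vehicle in replicate 3 (change -2.52 ± 0.46, adjusted p = 0.0415). Igfbp3 went the other way, at 9.45, 9.02 and 8.85 against 7.35, 7.34 and 7.73 (change 1.64 ± 0.24, adjusted p = 0.0227). A further probe set of Igfbp3 overlapped between the groups and did not pass (0.72, adjusted p = 0.329). The secreted follistatin-like gene Fstl1 fell by 2.27 ± 0.41 (adjusted p = 0.0398). Over the IGF, insulin and myostatin list 1 of 28 rose and 3 fell, 14.3% against 1.3% of all genes, with a median of -0.1. Igf1 itself was at 8.96, 9.31 and 10.23 against 9.88, 10.45 and 10.73 and myostatin, Mstn, at 8.72, 9.18 and 6.84 against 7.97, 9.02 and 8.19; the groups overlapped in both, and neither passed (adjusted p = 0.287 and 0.938). A dimmer probe set of Igf1 lay wholly below vehicle and also did not pass (change -1.97 ± 0.58, adjusted p = 0.142). The change of Mstn was -0.15 with all arrays and 0.55 without dexamethasone replicate 3.

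Of 66 translation factors, 2 rose, 1 fell and 63 did not pass. Besides Eif4ebp1, the scaffold gene Eif4g3 rose by 1.48 ± 0.26 (adjusted p = 0.0386), and Paip1, a partner of the poly(A)-binding protein that favours translation, fell by 1.39 ± 0.20 (adjusted p = 0.023). None of 41 cytosolic and 73 mitochondrial ribosomal protein genes passed, with medians of 0.07 and 0. At an unadjusted p under 0.05 there were 0 and 7, and the changes of the cytosolic ones ran from -0.3 to 0.34.

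Enzymes that break down or interconvert amino acids included some of the largest rises. Mitochondrial arginase Arg2, which splits arginine into ornithine and urea, had signals of 11.01, 9.33 and 9.3 against 5.58, 6.44 and 4.76, with replicate 1 the highest (change 4.28 ± 0.67, adjusted p = 0.0324). Proline dehydrogenase Prodh, the first step of proline breakdown, had 9.25, 8.77 and 7.94 against 5.31, 4.7 and 5.81, again without overlap (change 3.38 ± 0.47, adjusted p = 0.0213). Oat, the ornithine aminotransferase that links both pathways through glutamate semialdehyde, rose as well but by less (11.52, 11.73 and 11.93 against 10.58, 10.74 and 10.68, change 1.06 ± 0.18, adjusted p = 0.0367). Glutamine synthetase Glul, which makes the amino acid that muscle exports most, was already among the brightest genes in vehicle at 13.04, 12.99 and 12.84. It reached 14.44, 14.45 and 14.4 under dexamethasone, nearly equal in the 3 arrays (change 1.47 ± 0.21, adjusted p = 0.022). For Glul, 1 further probe set of Glul passed at 2.34 while another did not at 1.29 (adjusted p = 0.48).

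Methyl-group and creatine enzymes moved in opposite directions. Glycine methyltransferase Gnmt, which uses S-adenosylmethionine, rose from 4.35, 6.22 and 6.17 to 8.86, 9.23 and 9.0, with vehicle replicate 1 lowest (change 3.46 ± 0.44, adjusted p = 0.0206). Gamt, which makes creatine from guanidinoacetate, fell from 9.54, 9.87 and 9.83 to 8.32, 8.27 and 8.08, with little spread in either group (change -1.52 ± 0.18, adjusted p = 0.0166). Gatm, the enzyme before it, was singled out after its values were seen; it changed by -1.15 ± 0.24 and did not pass (adjusted p = 0.0635). Over the list of arginine, proline, glutamine and glycine enzymes, 5 of 24 rose, 1 fell and 18 did not pass. With earlier results known when the list was drawn up, 25% passed against 1.3% of all genes, while the median was -0.05. That median had either sign, from -0.21 with the batch block to 0.07 without dexamethasone replicate 1. Fah, the last step of tyrosine breakdown, was at 10.47, 8.89 and 8.93 against 6.4, 6.51 and 6.42, the vehicle arrays nearly equal (change 2.98 ± 0.40, adjusted p = 0.0211). Sqor, which oxidizes hydrogen sulfide in mitochondria, was at 11.21, 11.85 and 11.39 against 9.84, 9.42 and 9.32 (change 1.95 ± 0.27, adjusted p = 0.0213). These were the 2 of 13 sulfur and aromatic amino acid enzymes that rose, 15.4% against 0.738% of all genes, and 0 fell. None of 18 branched-chain amino acid enzymes passed (median 0.11; 3 at an unadjusted p under 0.05, 16.7% against 17.6% of all genes), the nearest being Dbt and Bckdha, both of the branched-chain keto acid dehydrogenase (0.74 ± 0.19 and 0.72 ± 0.26, adjusted p = 0.107 and 0.228). None of 22 amino acid transporters passed either, with 6, or 27.3%, at an unadjusted p under 0.05; Slc7a6 and Slc38a4 came nearest (1.54 ± 0.32 and 1.11 ± 0.27, adjusted p = 0.0612 and 0.0919).

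Chac1, which degrades glutathione and is a target of the stress factor ATF4, stood at 12.58, 11.83 and 12.03 against 9.04, 8.67 and 8.23 (change 3.49 ± 0.46, adjusted p = 0.0206). Of 18 genes of the ATF4 list, 3 rose (Chac1, Eif4ebp1 and Cebpb), 16.7% against 0.738% of all genes. In that list 0 fell and 15 did not pass, with a median of 0.22. Among polyamine genes, Arg2 was the 1 of 12 that rose; Srm, spermidine synthase, and Azin1, the antizyme inhibitor, missed the threshold (changes 1.14 ± 0.25 and -1.0 ± 0.28, adjusted p = 0.0665 and 0.129).

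Metallothionein Mt2A, a small metal-binding protein, had signals of 12.95, 11.06 and 11.43 against 8.29, 8.43 and 7.97, with replicate 1 well above the others (change 3.58 ± 0.43, adjusted p = 0.0166). The zinc exporter gene Slc30a2 rose from 6.06, 6.12 and 6.22 to 8.08, 7.48 and 7.67 (change 1.61 ± 0.21, adjusted p = 0.0206), and its second probe set passed at 3.43. The other 15 metallothionein and zinc transporter genes tested did not pass, and 10 of the 17 had changes below 0.

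The 250 bases before the annotated start of 3 of these genes follow, each gene chosen together with letters known for its regulators. Only a window that holds those letters was shown, so the match in each was fixed by the choice. Sequences are from RefSeq (build GRCr8), written 5′ to 3′ on the gene's strand, with matches on either strand in capitals. Glul (chr13:68519250-68519499, + strand) holds the letters ACA and TGTTC with any 3 bases between them, the core and 1 arm of the receptor's palindrome; Mt2A (chr19:10838709-10838958, - strand) holds the metal response element core TGCGCNC or TGCACNC; Chac1 (chr3:126795881-126796130, + strand) holds TGATGCAA, the composite element of ATF4 and C/EBP.
Glul: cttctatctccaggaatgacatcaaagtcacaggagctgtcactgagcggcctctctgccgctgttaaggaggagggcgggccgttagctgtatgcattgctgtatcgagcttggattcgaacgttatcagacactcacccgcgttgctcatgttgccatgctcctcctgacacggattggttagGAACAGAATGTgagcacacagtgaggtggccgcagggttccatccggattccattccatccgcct
Mt2A: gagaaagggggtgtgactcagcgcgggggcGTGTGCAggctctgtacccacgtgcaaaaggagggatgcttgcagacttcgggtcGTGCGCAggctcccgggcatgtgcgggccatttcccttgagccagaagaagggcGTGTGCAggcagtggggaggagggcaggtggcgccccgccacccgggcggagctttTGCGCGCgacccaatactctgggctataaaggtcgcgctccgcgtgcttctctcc
Chac1: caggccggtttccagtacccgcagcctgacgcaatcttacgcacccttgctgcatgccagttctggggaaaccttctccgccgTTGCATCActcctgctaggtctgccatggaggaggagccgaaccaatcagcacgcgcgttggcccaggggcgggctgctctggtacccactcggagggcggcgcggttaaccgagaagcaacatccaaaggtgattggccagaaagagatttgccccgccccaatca

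In Glul the match lies 55 to 65 bases before the start. Mt2A has 4 matches between bases 49 and 220, and Chac1 has 1 at bases 160 to 167. Promoter windows were found for 61 of the 77 genes that rose, 45 of the 59 that fell and 8712 of all genes tested, by symbol, with some genes holding several starts. The letters searched in Glul occurred for 2 of the 61 risen genes, Glul and Ctdspl, or 3.28%, for 0 of the 45 that fell and for 0.505% of all genes tested. The full palindrome, AGAACA and TGTTCT with any 3 bases between, was found for 0 of the 61 and for 0 of the 8712. A looser palindrome, GNACA and TGTNC with any 3 bases between, occurred for 0 of the 61 and for 23 of the 8712, or 0.264%. TGATGCAA occurred for 3.28% of risen genes, Chac1 and Gadd45g, against 0.494% of all, and the metal response core for 29.5% against 32.7%. The E-box CACGTG, read by clock factors, occurred for 13.1% of risen genes, 2.22% of those that fell and 8.8% of all. These are counts of letters in short windows, not of bound sites, and they include the genes shown above.

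Of the protein breakdown lists, only that of autophagy and lysosome genes held calls, all rises (8.82% against 0.738% of all genes). None of 16 atrophy ubiquitin ligase genes and partners passed, 3 had an unadjusted p under 0.05, 18.8% against 17.6% of all genes, and their median was 0.2 (0.13 without vehicle replicate 2). Trim63, the muscle ligase MuRF1, had signals of 13.3, 12.46 and 11.77 against 11.39, 11.49 and 11.32; all 3 dexamethasone arrays were higher, and they lay far apart (change 1.11 ± 0.35, adjusted p = 0.168). Fbxo32, which encodes atrogin-1, had 8.16, 8.14 and 5.61 against 6.26, 5.94 and 6.01, so replicate 3 lay below vehicle and the other 2 above (change 1.24 ± 0.62, adjusted p = 0.384). Replicate 3 was the array of high Gapdh ratio, and without it and the 1 array of the testosterone group with a high ratio, Trim63 and Fbxo32 passed. Fbxo31, another F-box gene, changed by 0.94 ± 0.26 (adjusted p = 0.121).

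None of 36 proteasome subunit genes passed and 14, or 38.9% against 17.6% of all genes, had an unadjusted p under 0.05; 32 had changes above 0, and 19, or 52.8%, lay wholly above vehicle against 15.2% of all genes. Their median was 0.35 (0.33, 0.17 and 0.55 in dexamethasone replicates 1, 2 and 3), with the ubiquitin receptor Psmd4 at 1.06 ± 0.22 (adjusted p = 0.0601). Of 34 autophagy and lysosome genes, 3 rose, 8.82% against 0.738% of all genes, 0 fell and 31 did not pass (median 0.2). The lysosomal protease cathepsin L, Ctsl, was at 13.75, 13.39 and 13.4 against 11.36, 11.45 and 11.35 (change 2.13 ± 0.28, adjusted p = 0.0206), Map1lc3a, the autophagosome protein LC3A, at 12.63, 12.6 and 12.54 against 11.44, 11.36 and 11.13, and Atg4a, the protease that matures proteins of that family, at 11.17, 10.59 and 10.85 against 9.69, 9.86 and 9.79. Map1lc3a rose by 1.28 ± 0.21 and Atg4a by 1.09 ± 0.21 (adjusted p = 0.0324 and 0.0471). None of 8 calpains and caspases passed, with 1 at an unadjusted p under 0.05, a median of -0.07 and 5 changes below 0; the calpain gene Capn2 changed by 1.36 ± 0.36 (adjusted p = 0.111). None of 68 ubiquitin-conjugating enzymes and deubiquitinases passed, with 10 at an unadjusted p under 0.05 and a median of 0.01 against 0.04 over all genes.

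**Figure D3:**
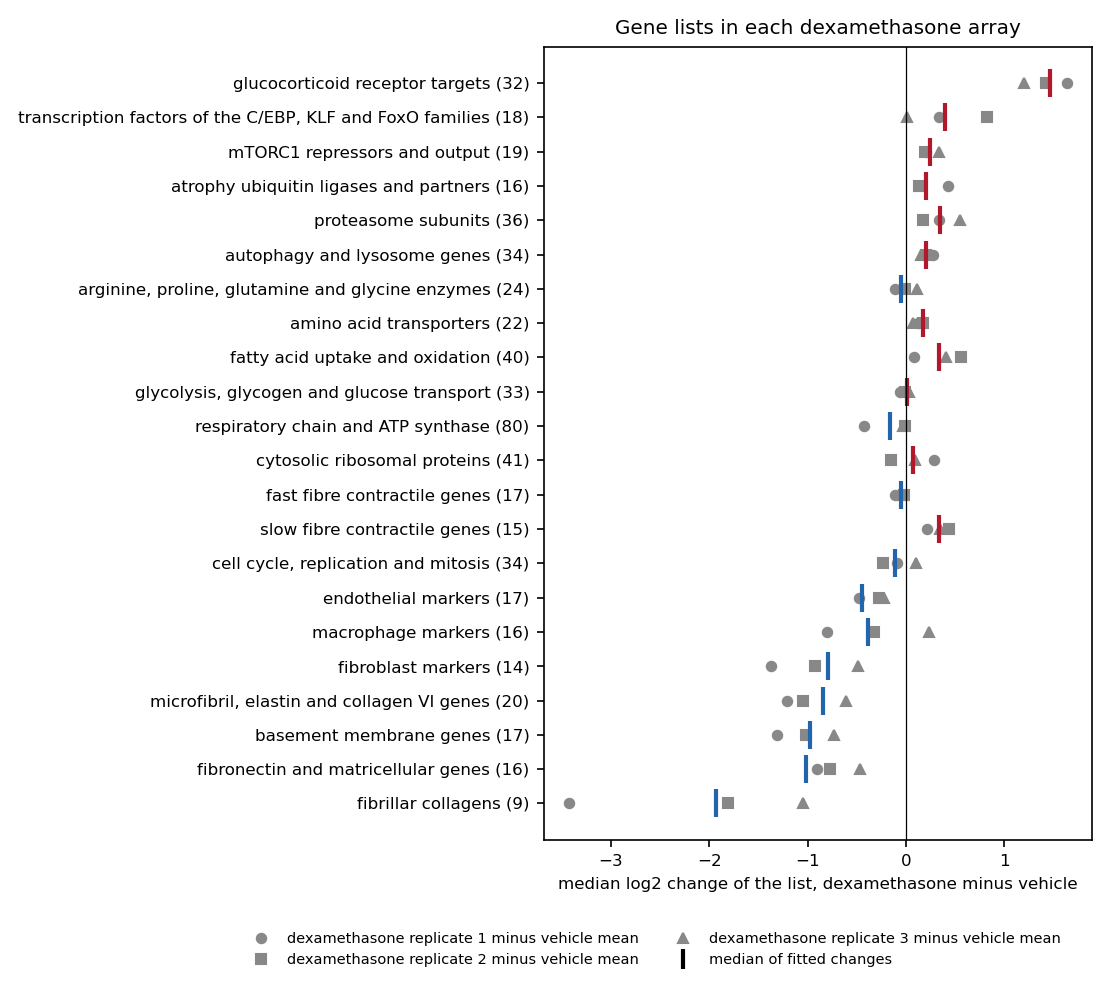
Median log2 change of 22 gene lists, with the number of genes tested in brackets; symbols give each dexamethasone array minus the vehicle mean and bars the median of fitted changes. Receptor targets stand at 1.47, fibrillar collagens at -1.93 with the 3 arrays spread from -3.42 to -1.05, and most metabolic and contractile lists near 0.

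Single genes of lipid storage and release rose. Pnpla2, the triglyceride lipase ATGL that starts fat breakdown, had signals of 12.86, 13.04 and 12.34 against 10.84, 10.19 and 10.09 (change 2.37 ± 0.33, adjusted p = 0.0213). Dgat2, which makes triglyceride in its last step, had 11.25, 11.44 and 10.63 against 9.46, 9.18 and 8.75 (change 1.98 ± 0.37, adjusted p = 0.0467). Dgat2 was the 1 of 24 cholesterol and lipid synthesis genes that rose; 0 fell, 14 were below 0, and the median was -0.09. Plb1, a phospholipase, rose by 2.13 ± 0.26 (adjusted p = 0.0185). Pnpla2 was the 1 of 40 fatty acid uptake and oxidation genes that rose; 0 fell, 31 were above 0, and the median was 0.34, with 0.08 in dexamethasone replicate 1 and 0.56 in replicate 2. Acsl4 and Mlycd came nearest the threshold (changes 1.78 ± 0.37 and 1.24 ± 0.28, adjusted p = 0.0624 and 0.0812). Pdk4, which shuts the pyruvate dehydrogenase complex and so spares glucose, rose from 11.63, 11.61 and 11.93 to 13.9, 13.85 and 12.91 (change 1.82 ± 0.33, adjusted p = 0.04), least in replicate 3. It was the 1 of 12 pyruvate dehydrogenase control genes that passed, and its dimmer probe set did not (0.95, adjusted p = 0.761).

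Carbohydrate and NAD genes held single large falls. Fbp2, muscle fructose bisphosphatase, was at 9.6, 9.69 and 9.44 against 10.66, 10.87 and 10.87 (change -1.22 ± 0.21, adjusted p = 0.0367), the 1 of 33 glycolysis, glycogen and glucose transport genes that passed. The glucose transporter gene Slc2a4 (GLUT4) changed by 0.63 ± 0.19 and did not pass (adjusted p = 0.156). Stbd1, which binds glycogen and ties it to autophagy, fell from 11.49, 11.47 and 11.5 to 8.86, 9.42 and 10.03 (change -2.05 ± 0.28, adjusted p = 0.0213). Nmrk2, a muscle kinase that makes NAD from nicotinamide riboside, showed the largest fall: signals were 12.22, 12.09 and 12.22 in vehicle, nearly equal, and 6.71, 7.27 and 7.78 under dexamethasone, a 30.4-fold difference in the fit (change -4.93 ± 0.64, adjusted p = 0.0206). It was the 1 of 17 NAD genes that passed; Nampt, the rate-limiting enzyme of NAD salvage from nicotinamide, changed by 0.84 ± 0.26 (adjusted p = 0.164). Gadl1, a decarboxylase of amino acids, fell from 11.75, 11.59 and 11.91 to 8.89, 9.0 and 9.97, and the dimethylarginine hydrolase gene Ddah2 from 7.45, 8.17 and 7.91 to 5.29, 6.44 and 6.3 (changes -2.46 ± 0.29 and -1.83 ± 0.32, adjusted p = 0.0166 and 0.0378).

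None of 80 respiratory chain and ATP synthase genes passed and 4 had an unadjusted p under 0.05, although 69 of them had changes below 0, or 86.2% against 45.7% of all genes. The median was -0.16, with -0.43 in dexamethasone replicate 1, -0.01 in replicate 2 and -0.04 in replicate 3, so that it rested on 1 array and was -0.03 without it. None of 20 citric acid cycle enzymes passed (median -0.06; 0 at an unadjusted p under 0.05).

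Genes of the extracellular matrix fell in 5 of the 6 matrix lists, and 0 rose in any of them. Among fibrillar collagens, the fibre-forming proteins of connective tissue, Col5a3 was at 5.37, 6.49 and 7.52 against 9.04, 9.45 and 9.5 (change -2.87 ± 0.46, adjusted p = 0.0324) and was the 1 of 9 that passed. All 9 had changes below 0, with a median of -1.93. The main collagens Col1a1, Col1a2 and Col3a1 had changes of like size with wider errors: Col3a1 had 8.79, 10.8 and 12.23 under dexamethasone against 13.23, 13.73 and 13.86. It did not pass (change -3.0 ± 0.71, adjusted p = 0.0857), nor did Col1a2 (-2.78 ± 0.80, adjusted p = 0.137). Of the collagen V chains Col5a1 and Col5a2 the brighter probe sets missed the threshold (changes -1.93 ± 0.55 and -1.92 ± 0.42, adjusted p = 0.132 and 0.0693), and a dimmer probe set of each passed (-1.74 and -2.07, adjusted p = 0.0353 and 0.0415).

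Basement membrane genes, which encode the sheet around each fibre and capillary, had a median of -0.98. Lamb1, a laminin chain, was at 8.11, 7.97 and 8.97 against 9.93, 10.29 and 10.12 and was the 1 of 17 that fell (change -1.77 ± 0.28, adjusted p = 0.0324). In the collagen IV chain Col4a2 and collagen XV, Col15a1, the changes were -0.98 ± 0.20 and -2.77 ± 0.58 (adjusted p = 0.0581 and 0.0623). Of the 17 genes, 12 lay wholly below vehicle, 70.6% against 11.5% of all genes.

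Microfibril, elastin and collagen VI genes held 4 of 20 that fell, 20% against 0.566% of all genes. Mfap4, a microfibril protein that binds elastin and collagen, had 4.86, 5.17 and 6.07 against 8.9, 9.43 and 9.47 (change -3.9 ± 0.39, adjusted p = 0.0161). Mfap5, another microfibril protein, had 8.53, 8.83 and 8.86 against 10.66, 10.26 and 10.54, Col6a2, a chain of the collagen that anchors fibres, 6.92, 7.56 and 8.0 against 9.17, 9.77 and 9.47, and Ltbp4, which holds latent TGF-beta in the matrix, 8.05, 8.83 and 9.05 against 9.87, 10.08 and 10.35. Their changes were -1.75 ± 0.29, -1.98 ± 0.34 and -1.46 ± 0.28 (adjusted p = 0.0338, 0.0359 and 0.0497). A second probe set of Col6a2 stood at -0.28 and did not pass.

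Of 16 fibronectin and matricellular genes, 2 fell, 12.5% against 0.566% of all genes, 0 rose and 14 did not pass. Smoc2, a calcium-binding matricellular protein, was at 8.1, 7.74 and 9.84 against 11.43, 11.32 and 11.85, closest to vehicle in replicate 3, and fibronectin Fn1 at 8.33, 8.17 and 8.79 against 10.36, 10.7 and 10.96 (changes -2.98 ± 0.49 and -2.24 ± 0.37, adjusted p = 0.0324 and 0.0324). Sparc, a collagen-binding glycoprotein, and periostin, Postn, changed by -1.77 ± 0.36 and -2.36 ± 0.61 (adjusted p = 0.0555 and 0.107). Loxl2, a lysyl oxidase-like enzyme that crosslinks collagen, fell from 7.11, 7.78 and 7.57 to 4.46, 4.73 and 5.93 and was the 1 of 24 processing and protease genes that passed (change -2.45 ± 0.39, adjusted p = 0.0324). Its dexamethasone signals lay near the floor, and its change ran from -3.5 to -1.48 over the alternatives run. A further probe set of Loxl2 did not pass (-0.88, adjusted p = 0.374). Pxdn, a peroxidase that crosslinks collagen IV, fell from 9.61, 9.63 and 9.91 to 7.89, 6.93 and 8.32 (change -2.01 ± 0.32, adjusted p = 0.0324). The secreted C1q-related gene C1qtnf3 fell by 2.11 ± 0.30 and carboxypeptidase E, Cpe, which trims peptide hormones, by 1.96 ± 0.28 (adjusted p = 0.022 and 0.022). Dexamethasone signals of C1qtnf3 were 5.03, 4.31 and 4.6, near the floor. Its change ran from -2.3 to -1.12 over the alternatives in which it was tested. None of 10 small leucine-rich proteoglycan genes passed (3 at an unadjusted p under 0.05), and Lum and Omd had changes of opposite sign (-2.9 ± 0.65 and 1.23 ± 0.28, adjusted p of 0.075 for each).

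**Figure D4:**
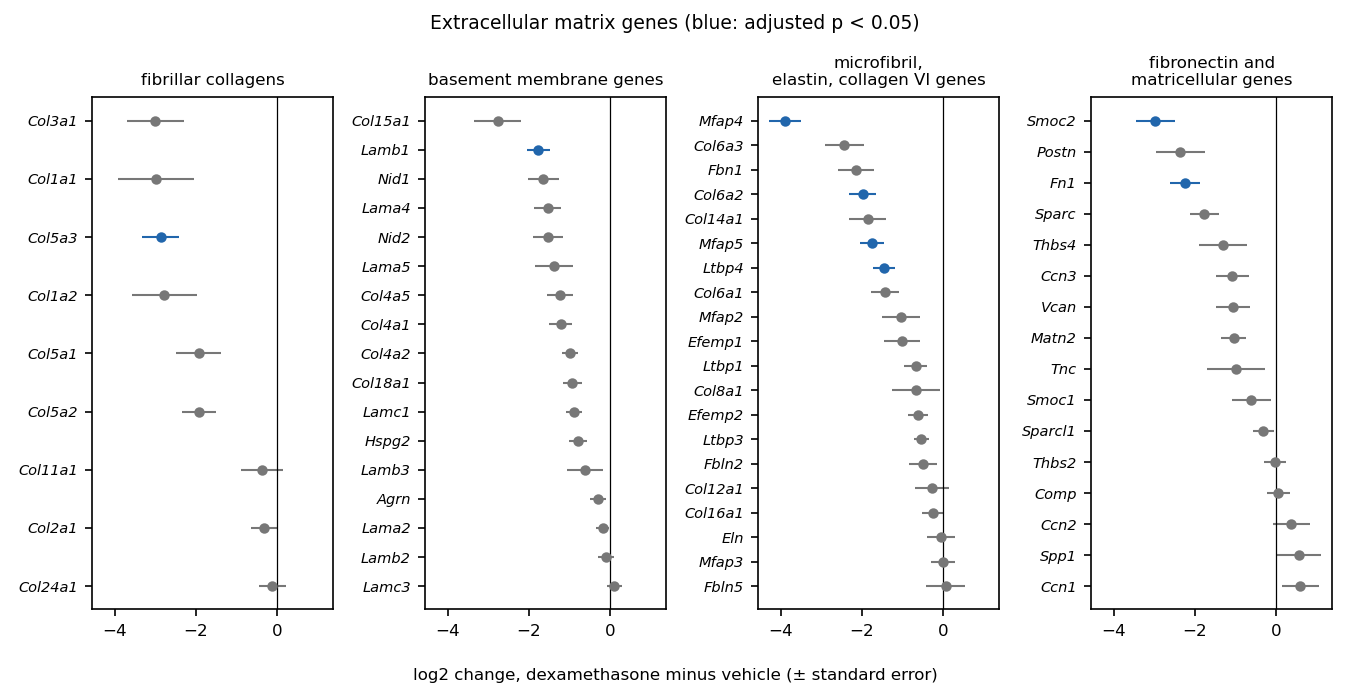
Fitted log2 changes (points) with standard errors (bars), dexamethasone minus vehicle, for every tested gene of 4 matrix lists; blue marks an adjusted p under 0.05. Nearly all points lie left of 0, from -3.9 for Mfap4 to 0.6 for Ccn1, and the largest changes of Col3a1, Col1a1 and Col1a2 carry the widest bars among the collagens.

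Markers of fibroblasts, the cells that make most of these proteins, were lower by a median of -0.79, and fewer fibroblasts and less RNA per fibroblast cannot be told apart in whole muscle. All 14 markers tested had changes below 0 and 1 passed (Mfap5); the mean log2 signal over the list was 8.32, 9.1 and 9.68 in dexamethasone replicates 1, 2 and 3, against 10.04, 10.34 and 10.42 in vehicle. Of the 14 markers, 5 belong to the matrix lists too, Mfap5, Lum, Dcn, Col1a1 and Col3a1, so the lists are not independent. Over the other 9, a split made after the values were seen, 0 passed, all 9 changes were below 0 with a median of -0.7, and the mean signal was 8.15, 8.51 and 9.02 against 9.03, 9.26 and 9.37. Fibrillar collagen medians were -3.42, -1.81 and -1.05 in the 3 dexamethasone arrays; how far this marker shift bears on the matrix results was not tested. Replicate 3, nearest to vehicle, was the array of high Gapdh ratio, and without the 2 such arrays of the series the fibrillar collagen median was -2.44 and 3, 6, 8 and 5 genes of the 4 matrix lists plotted passed, all lower. Without dexamethasone replicate 1 that median was -1.43 and none of the 4 lists had a member past the threshold.

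Of the vascular markers, 1 passed. Car4, a carbonic anhydrase on muscle capillaries, was at 4.46, 4.66 and 6.37 against 7.8, 7.94 and 7.65 and nearest to vehicle in replicate 3 (change -2.64 ± 0.45, adjusted p = 0.0359). Dexamethasone replicates 1 and 2 lay near the floor, and the change ran from -3.7 to -1.645 over the alternatives run. Car4 was the 1 of 17 endothelial markers that passed, and the median of the list was -0.45. Mean signals over that list ran from 8.32 to 8.55 under dexamethasone and from 8.75 to 8.92 under vehicle, without overlap. The VEGF receptor genes Kdr and Flt1 differed in sign (-0.93 ± 0.23 and 0.79 ± 0.26), and both missed the threshold (adjusted p = 0.0967 and 0.19). Evl, an actin regulator of the Ena/VASP family, fell from 6.66, 6.52 and 6.68 to 4.82, 4.74 and 5.22 (change -1.7 ± 0.19, adjusted p = 0.0166), and the tetraspanin gene Tspan9 from 9.83, 9.81 and 9.84 to 8.08, 8.07 and 8.39 (change -1.64 ± 0.26, adjusted p = 0.0324), while a dimmer probe set of Tspan9 did not pass (-0.35). None of 15 smooth muscle and pericyte markers passed (3 at an unadjusted p under 0.05); 5 were above 0, and the median was -0.22, with 0.01 in dexamethasone replicate 2 and 0.21 within batch B.

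In the list of NF-kB inhibitors and chemokines, which also holds the cytokine Il15, 3 of 13 rose (Nfkbia, Il15 and Tsc22d3) and 1 fell (Ccl2). That was 30.8% against 1.3% of all genes, in a list drawn up with earlier results of these data known. Markers of immune cells gave no calls. Ccl2, the chemokine that draws monocytes, was at 5.15, 5.49 and 5.15 against 6.76, 7.2 and 6.93 (change -1.7 ± 0.25, adjusted p = 0.0244). Its change ran from -2.31 to -1.02 over the alternatives in which it was tested. Nfkbia, which holds NF-kB in the cytoplasm, was at 9.82, 9.84 and 10.73 against 8.46, 8.57 and 8.97, highest in replicate 3 (change 1.46 ± 0.28, adjusted p = 0.0476). Il15, a cytokine made by muscle fibres, was at 11.08, 11.21 and 10.81 against nearly equal vehicle arrays (9.21, 9.19 and 9.23), and its change of 1.82 ± 0.18 had an adjusted p of 0.0161. The antiviral gene Oas1a rose from 6.65, 6.05 and 5.47 to 7.91, 8.7 and 7.94 (change 2.13 ± 0.40, adjusted p = 0.0464), while the 21 other interferon-response genes tested did not pass and the list median was -0.41. None of 16 macrophage markers passed (1 at an unadjusted p under 0.05); vehicle arrays had a mean over the list of 7.12 to 7.27, and the dexamethasone arrays lay on both sides of it, at 6.39, 6.9 and 7.58. Cd163, a scavenger receptor known as glucocorticoid-induced, changed by 1.04 ± 0.28 (adjusted p = 0.119). Genes of MHC class II presentation were lower without passing, Cd74 by a change of -1.51 ± 0.35 and RT1-Da of -1.52 ± 0.44 (adjusted p = 0.0823 and 0.138). None of 9 lymphocyte and antigen presentation markers passed, but 4 had an unadjusted p under 0.05, 44.4% against 17.6% of all genes. Those 4 were lower, and 2 of the 9 changes were above 0. Mean signals over that list were 6.77, 6.94 and 7.08 against 7.48, 7.67 and 7.48, without overlap. None of 10 adipocyte, 7 nerve and 4 erythroid markers passed. At an unadjusted p under 0.05 there were 3, 0 and 3, or 30%, 0% and 75% against 17.6% of all genes. The 3 adipocyte markers were higher and the 3 erythroid ones lower, with list medians of 0.295 and -1.02. Mean signals over the adipocyte list were 8.79, 8.55 and 8.62 against 8.18, 8.07 and 8.12, without overlap. Over the erythroid list they were 7.315, 8.75 and 8.43 against 8.76, 9.37 and 8.99.

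Growth and cell cycle genes contained strong single falls. Ccnd1, cyclin D1, which starts the cell cycle in G1, was at 6.34, 4.44 and 6.09 against 8.31, 8.42 and 8.68 (change -2.85 ± 0.43, adjusted p = 0.029). A dimmer probe set of Ccnd1 had the lowest adjusted p of all probe sets, 0.0023 (change -3.17 ± 0.22). Another probe set of Ccnd1 did not pass (-2.32 ± 0.61, adjusted p = 0.111). Tfdp1, the partner of E2F factors, fell by 1.1 ± 0.19 (adjusted p = 0.0367), and Ccnd1 and Tfdp1 were the 2 of 34 cell cycle genes that passed. The related Tfdp2 and the cell cycle inhibitor Cdkn1a missed the threshold (changes 1.11 ± 0.23 and 2.48 ± 0.55, adjusted p = 0.0585 and 0.0744). Mest, an imprinted gene expressed in growing tissue, was at 5.29, 5.62 and 6.69 against 8.23, 9.24 and 8.79 (change -2.89 ± 0.42, adjusted p = 0.0244). Nrep, a small protein tied to TGF-beta signalling and regeneration, was at 9.14, 10.6 and 11.6 against 13.42, 13.62 and 13.78, so that replicate 1 was lowest and replicate 3 nearest to vehicle (change -3.16 ± 0.51, adjusted p = 0.0324). Golm1, a Golgi membrane protein, rose from 6.36, 5.76 and 6.04 to 9.32, 9.14 and 8.23 (change 2.84 ± 0.38, adjusted p = 0.0211). Map1b, a microtubule-binding protein, went from 9.05, 7.85 and 9.06 to 11.14, 11.11 and 10.61 (change 2.3 ± 0.37, adjusted p = 0.0324; further probe sets 1.17 and 0.43, neither passing), and Ctdspl, a phosphatase, from 7.56, 7.7 and 7.71 to 10.68, 9.52 and 9.75 (change 2.33 ± 0.32, adjusted p = 0.0213). A further probe set of Ctdspl did not pass (1.2, adjusted p = 0.317). Phlda3, which competes with Akt for membrane lipids, rose by 1.86 ± 0.31 (adjusted p = 0.0324).

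Single genes passed in the fast fibre, Z-disc and calcium handling lists. Their shares were 5.88%, 3.33% and 3.7%, against 1.3% of all genes. Myoz3, a Z-disc protein of fast fibres, was at 8.65, 9.97 and 10.01 against nearly equal vehicle arrays (11.36, 11.37 and 11.37), and was the 1 of 17 fast fibre genes that passed (change -1.82 ± 0.35, adjusted p = 0.0476). A further probe set of Myoz3 overlapped between the groups and did not pass (-2.38, adjusted p = 0.35). None of 15 slow fibre genes passed (2 at an unadjusted p under 0.05), with medians of 0.33 for slow and -0.05 for fast genes. Myoz3 was also the 1 of 30 Z-disc, M-band and giant protein genes that passed, and changes in that list ran from -1.82 to 2.42. Of those 30, 12 lay wholly above vehicle, 40% against 15.2% of all genes, and 4 wholly below; Pdlim7 and Pdlim5, PDZ and LIM domain proteins, changed by -1.01 ± 0.23 and 0.77 ± 0.18 (adjusted p = 0.0829 and 0.0855). Parvalbumin, Pvalb, the calcium buffer of fast fibres, changed by -0.92 ± 0.21 (adjusted p = 0.082). Ryr3, a calcium release channel, had 8.33, 11.35 and 11.19 against 6.54, 4.48 and 6.44, with vehicle replicate 2 and dexamethasone replicate 1 the lowest of their groups; the within-batch changes were 1.84 in batch A and 6.87 in batch B (change 4.47 ± 0.86, adjusted p = 0.0497). Of the other 26 calcium handling genes tested none passed, although 9 of all 27 lay wholly below vehicle, 33.3% against 11.5% of all genes; the junction genes Jph2 and Sypl2 changed by -1.08 ± 0.25 and -0.9 ± 0.18 (adjusted p = 0.0848 and 0.0548). No gene passed among 14 satellite cell and myogenic, 14 dystrophin complex, 17 neuromuscular junction and 13 calcineurin genes, with 3, 2, 7 and 2 at an unadjusted p under 0.05, or 21.4%, 14.3%, 41.2% and 15.4% against 17.6% of all genes. Art5, an ADP-ribosyltransferase, rose from 8.24, 6.87 and 7.66 to 10.21, 10.23 and 10.16 (change 2.61 ± 0.46, adjusted p = 0.0384); Art1, the muscle surface enzyme of the same family, singled out after its values were seen, rose from 12.56, 12.4 and 12.37 to 13.94, 13.84 and 13.83 (change 1.43 ± 0.24, adjusted p = 0.0324).

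Other genes among the 30 largest changes in each direction belonged to no list. Fmo2, a flavin monooxygenase, rose from 7.74, 6.79 and 7.53 to 9.95, 9.94 and 8.88, and Nubpl, an assembly factor of respiratory complex I, from 8.23, 8.15 and 8.42 to 10.14, 9.91 and 10.54. Their changes were 2.24 ± 0.39 and 1.93 ± 0.32 (adjusted p = 0.0367 and 0.0324). Gpm6b, a membrane proteolipid, fell from 10.25, 10.73 and 10.82 to 8.1, 7.55 and 8.64, and Bbs9, a subunit of the ciliary BBSome, from 9.28, 9.85 and 9.02 to 6.8, 7.06 and 8.01 (changes -2.51 ± 0.30 and -2.09 ± 0.34, adjusted p = 0.0166 and 0.0324). A dimmer probe set of Gpm6b overlapped between the groups and did not pass (-0.8, adjusted p = 0.344). Spmip6 fell by 1.64 ± 0.26, and the uncharacterized genes LOC100909396 and LOC102548331 by 2.48 ± 0.25 and 1.86 ± 0.21 (adjusted p = 0.0324, 0.0161 and 0.0166).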

How the data were processed

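One Affymetrix rat array was hybridised per animal (9 arrays, 3 per group). The deposited table holds linear signal intensity per probe set, 31099 in all; how the authors summarised probes into it is not given in the sources used here, nor is a background step. The 57 control probe sets were left out, 16 was added, and log2 values were quantile normalized. Probe sets with a mean at or above the 40th percentile were kept (18625). Group means were fitted over all 9 arrays with lmFit and eBayes in limma 3.58.1 (R 4.3.3), with Benjamini-Hochberg adjustment and a threshold of 0.05. Errors of changes are standard errors from that fit. The fit was first run on simulated data with independent noise and large changes planted in probe sets of low spread. That run says nothing about smaller changes or batches. Symbols numbered 1 for 20826 probe sets, several for 436 and none for 9780, by GEO's platform annotation; 20758 symbols were updated through gene IDs. A gene was read from its probe set of highest mean. Genes named are 12 chosen regulators, the 30 largest changes each way past the threshold, members of the 60 lists past it, and up to 4 members of lowest p in lists with fewer than 3 of these. One gene that this rule names is not reported here. Members and lists were chosen with earlier results of these data known. Technical batches were read from the signal scale and spike-ins. The number of arrays limits the precision. Alternatives were the scaling, the pseudocount, the filter, the variance model, the arrays fitted, replicate and batch blocks, and leaving out each array.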

Additional observations from a re-analysis of the deposited data

How the results depend on the processing

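The counts of calls moved with nearly every choice, while the direction of the 136 genes, where tested, did not change under any alternative run; choosing the genes on these arrays largely fixes that. In the order probe sets, genes higher and genes lower, the counts were 196, 77 and 59 in the reported fit, 54, 28 and 15 with a pseudocount of 1, and 414, 161 and 124 with a pseudocount of 64. They were 48, 23 and 14 with no filter, 469, 194 and 136 with a filter at the 60th percentile, 510, 213 and 148 with a robust variance that follows the intensity, and 123, 50 and 35 with only the 6 arrays. Without the 2 arrays of high Gapdh ratio they were 444, 115 and 156, so the share of higher calls went from 56.6% to 42.4%; with the batch block it was 46.2%, from 54 and 63 genes. Leaving out 1 array at a time gave 1 to 333 probe sets, 0 to 96 genes higher and 0 to 125 lower; without the second array of the testosterone group they were 49, 27 and 15. Scaling to an equal trimmed mean or by cyclic loess gave 141 and 156 probe sets. With the replicate block 13 probe sets, 7 genes higher and 5 lower passed. Deviations of same-numbered vehicle and dexamethasone arrays correlated at 0.026, 0.296 and 0.111, and those of other pairs at -0.223 to 0.163. Vehicle replicate 1 correlated best with dexamethasone replicate 3 (0.163), and vehicle replicates 2 and 3 with their own number. These values do not settle whether the animals were paired, and the numbers were not taken to pair them. Replicates 1 and replicates 2 of the groups also share a technical batch. Sizes of change moved too for genes with low signals in 1 group. Over all alternatives run, Mfap4 ran from -4.68 to -2.87 and Evl from -2.21 to -0.92. Among rises, Per1 ran from 1.16 to 2.75, Prodh from 2.37 to 4.2, Gnmt from 2.51 to 4.36 and Arg2 from 3.32 to 5.0.

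Some values turned their sign. Leaving out 1 array at a time, Foxo1 ran from -0.59 (without dexamethasone replicate 2) to 1.36, Mstn from -0.62 to 0.55 (without dexamethasone replicate 3; 0.17 without vehicle replicate 2), and Txnip from -0.39 to 0.25 (without dexamethasone replicate 3). The median of arginine, proline, glutamine and glycine enzymes ran from -0.19 to 0.066 (0.011, 0.01 and 0.066 without vehicle replicate 1, vehicle replicate 2 and dexamethasone replicate 1), and that of C/EBP, KLF and FoxO factors from -0.038 (without dexamethasone replicate 2) to 0.48. With the batch block Mstn was 0.41 and Txnip 0.12, and without the 2 arrays of high Gapdh ratio they were 0.55 and 0.25. The cause was not tested. With 3 arrays per group no outlier check on single arrays was made.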

Other observations

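Further genes past the threshold belonged to none of the gene lists and were singled out after their values were seen. Hacd1, a muscle enzyme of very long chain fatty acid synthesis, was at 11.41, 12.1 and 12.17 under dexamethasone against 13.15, 13.37 and 13.32 under vehicle (change -1.39 ± 0.24, limma adjusted p = 0.0359). Aplnr, the apelin receptor of endothelium, changed by -1.54 ± 0.28, and Vash2, a regulator of vessel growth, by -1.54 ± 0.27 (adjusted p = 0.0415 and 0.0378). A further probe set of Aplnr overlapped between the groups and did not pass (-0.68, adjusted p = 0.552). Me1, the cytosolic malic enzyme that supplies NADPH, changed by -1.35 ± 0.24 (adjusted p = 0.0384). Among rises, Ifrd1, a regulator of muscle regeneration, had 11.09, 11.11 and 10.83 against 9.45, 9.53 and 8.87 and Asb11, a ubiquitin ligase adaptor, 12.59, 12.13 and 12.45 against 11.04, 10.61 and 11.2 (changes 1.73 ± 0.25 and 1.44 ± 0.24, adjusted p = 0.0227 and 0.0324).

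Of the 196 probe sets past the threshold, 39 had no single gene symbol in the annotation used; 20 were higher and 19 lower. The 136 genes had 54 further probe sets tested, of which 49 had a change of the same sign, 8 passed and 21 overlapped between the groups.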
